A study of Mus musculus with 10 samples.

Results

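Gene expression was compared between 2 sorted populations of mouse small intestinal crypt cells, OSCARhigh EF1alow (P2) and OSCARlow EF1ahigh (P3), which sit at opposite corners of the sorting plot. The members are the 2 libraries titled P2 and the 2 titled P3, 4 of the 10 libraries of the series, chosen by their deposited titles. OSCAR is a fluorescent reporter of CDK9, the kinase that releases RNA polymerase II into elongation: its Venus-derived protein, VeN90, is bright where CDK9 activity is low, and the mCherry made from the same messenger RNA gives the amount of reporter. OSCARhigh cells are therefore bright in VeN90 for their mCherry, and EF1alow and EF1ahigh stand for low and high output of the EF1a promoter that drives both proteins. All 10 libraries came from EF1a-OSCAR mice of strain C57BL6/J, which carry the reporter at Rosa26 with its stop cassette removed in the germ line by Vasa-Cre, so that every tissue can express it. Each library was made from 10000 live (Sytox Blue negative) EpCAM-positive cells, by poly-A selection without strand information. The other 6 libraries, 2 each, are P1 (OSCARlow EF1alow), P4 (OSCARmed EF1alow) and P5 (OSCARmed EF1ahigh), and serve as a reference for levels. Age and the number of animals behind a library are not in the labels, no control without the reporter is among the libraries, and the reporter transcript was not analysed here. The 2 gates differ both in OSCAR and in EF1a, so that what goes with CDK9 activity and what goes with output of the EF1a promoter cannot be told apart. The names P2 and P3 conflict between sources: titles and gating plot call the OSCARhigh EF1alow cells P2, whereas the study's marker plots place the secretory markers and the proposed reserve stem cell markers Prox1, Hopx and Dll1, which lie here in the libraries titled P2, under the name P3, and Tert and Krt19, higher here in those titled P3, under P2. By protein staining of tissue sections, the study describes OSCARhigh cells as negative for the proliferation marker encoded by Mki67. The RNA of that gene was lower here in the libraries titled P2. Protein in single cells and RNA of a sorted gate are different measures, so this comparison does not settle the names. The study also places Bmi1 and Lrig1 under P3, and Erbb2, Erbb3 and Hnf4a under P2. Here Erbb2 was called higher in the libraries titled P3. The others also ran opposite to the study's names, but were not called. By gate, the study reports the lowest RNA content per cell for P2, and it also measured the cell cycle. Neither was compared here. The titles are followed throughout, and an exchange of the names would reverse the sign of every difference.

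The crypt is the glandular pit at the base of the intestinal villi. Stem cells at its floor divide under Wnt signals and supply dividing progenitors, which become either absorptive enterocytes, the cells that digest and take up food, or secretory cells. Notch signalling between neighbours makes this choice: cells that receive it switch on Hes1 and turn absorptive, and cells that escape it express Atoh1 and turn secretory. The secretory branch holds Paneth cells, which release antimicrobial peptides, goblet cells, which make mucus, enteroendocrine cells, which release hormones, and tuft cells, which sense the content of the gut. CDK9 with cyclin T forms P-TEFb, which phosphorylates the polymerase and the factors that hold it near the promoter. The study describes low transcription for dormant cells, which have left the cycle reversibly. It describes phosphorylated polymerase for differentiated cells, which do not divide either.

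The P2 libraries held 4732033 and 6291245 counts on nuclear genes and the P3 libraries 1574312 and 3003390, against 5194259 to 6260598 in the other 6. The floor of 3 counts per library was thus highest in P3 replicate 1, at 0.000191% of its counts. Mitochondrially encoded rows, which were left out before scaling, took 1.04% of the gene counts in both P2 libraries but 59.2% and 36.1% in P3, and 1.17 to 5.19% elsewhere. Reads with more than 1 alignment, which were not counted, numbered 46.0 and 42.9 alignments per 100 gene counts in P2 and 74.8 and 53.8 in P3, against 14.3 to 20.5 in the others. The part of the mitochondrial share, the multiple alignments and the low depth in the differences given here was not tested, beyond the alternatives named beside each result. Levels are given as CPM, counts per 1000000 of library sizes scaled by the trimmed mean of M-values (TMM), which assumes that most genes do not change. Log2 fold changes are of P2 over P3 and are given with ± 1 SE; a value in parentheses right after a gene is its log2 fold change. The TMM factors were 0.562 and 0.62 in P2 and 1.11 and 1.29 in P3, so that CPM of a library do not sum to the nominal total and shares of nuclear counts are given beside them. EpCAM, the sorting marker, is encoded by Epcam, which was at 830.0 and 905 CPM in P2 and 1749 and 1450 in P3 (log2 fold change -0.88 ± 0.26, adjusted p = 0.027). Of 10 epithelial identity genes, 1 was higher in P2 and 3 were higher in P3, with keratin Krt8 at 867 and 1637 CPM in P2 and 2242 and 1595 in P3, Krt18 at 1434 and 1611 CPM in P2 and 301 and 332 in P3 (log2 fold change 2.27 ± 0.25, adjusted p = 0.000322), and the intestinal factor Cdx2 at 91.1 and 124 CPM in P2 and 264 and 248 in P3 (log2 fold change -1.25 ± 0.24, adjusted p = 0.00402). With 1 library left out, the 3 epithelial identity genes higher in P3 became 0 to 1 (without P2 replicate 1 or 2 or P3 replicate 1). Calls were then lost for Cdx2 (without any 1 of the 4, adjusted p up to 0.0352).

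Between the populations 2846 of 13888 genes tested were called at an adjusted p under 0.01 by the quasi-likelihood test of edgeR, fitted to all 10 libraries and adjusted over all genes after Benjamini and Hochberg. This was 20.5% of the genes, of which 1542 were higher in P2 (11.1%) and 1304 higher in P3 (9.39%). These percentages are the background for every list given here, and the median log2 fold change of all genes tested, P2 over P3, was 0.06. Genes called higher in P2 differed more: their median log2 fold change was 2.63 in size, and 940 (61%) differed over 4-fold, against 1.85 and 563 (43.2%) of those higher in P3. With genes at 0 counts in the lower population set to the bound that 3 counts per library give, 935 and 561 differed over 4-fold. Both P2 libraries lay above all 8 other libraries for 1351 of the 1542 genes higher in P2 (87.6%), and below them for 991 of the 1304 genes higher in P3 (76.0%). For P3 the same counts were 454 genes below all others and 297 above (29.4% and 22.8%). Over all genes tested, both P2 libraries were above all others for 20.8% and below for 14.0%, and both P3 libraries above for 4.47% and below for 6.66%. The 2 populations did not overlap for 65.0% of the genes tested, and for none of the called genes did they overlap. The correlation of log2(CPM + 1) across tested genes was 0.957 within P2 and 0.908 within P3, and 0.715 to 0.741 between the populations. P3 correlated with P4 and P5 at 0.888 to 0.967, and P2 with the same libraries at 0.772 to 0.803; genes are not independent, and all libraries share 1 scaling. The replicates of P3 differed over 4-fold for 941 genes and those of P2 for 149. Without replicate 1 or 2 of P2, 768 and 809 genes were called higher in P2 and 576 and 651 higher in P3. Scaled to total nuclear counts in place of TMM, 678 genes were higher in P2 and 4465 higher in P3 (13.2% and 86.8% of the calls, against 54.2% and 45.8%), with the median of all genes at -0.96. Nearly every value moves by this amount towards P3 under that scaling, and directions that turn with it are named. The exact permutation test of 1 gene in 2 against 2 libraries cannot go below p = 0.333. All p-values therefore come from the model across genes. The study names 2 biological replicates for each population. No label says that these came from separate animals, so the p-values measure the spread between these libraries only.

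**Figure D1:**
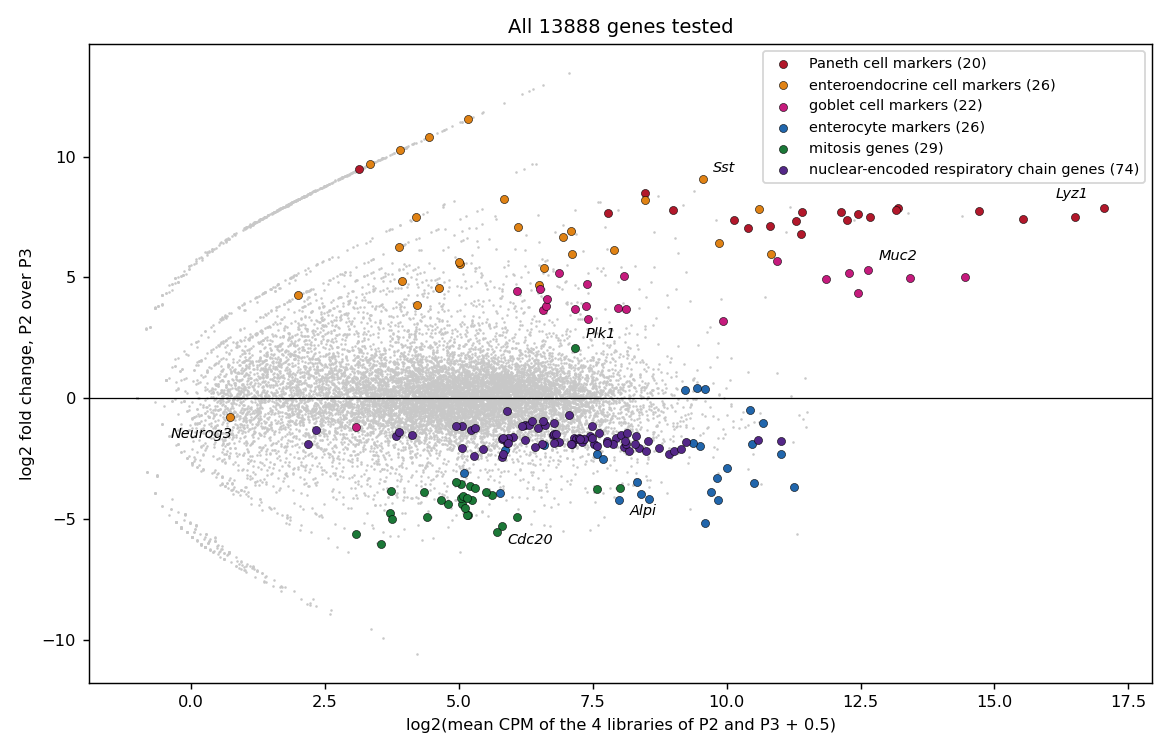
Each grey point is 1 of the 13888 genes tested, with log2 of the mean CPM of the 4 libraries (plus 0.5) on the horizontal axis and the log2 fold change of P2 over P3 on the vertical axis; coloured points are members of 6 lists. Paneth, goblet and enteroendocrine genes lie mostly above 0, and enterocyte, mitosis and respiratory chain genes mostly below it, with Plk1 as a mitosis gene above 0.

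The 12 largest differences towards P2 were taken among called genes with a mean of at least 20 CPM in P2 and over 3 counts in P3. Sst, the hormone somatostatin of D cells (chr16:23889667-23890930, minus strand, positions in mm9), was at 919 and 2075 CPM in P2 and 3.45 and 2.33 in P3 (log2 fold change 9.08 ± 0.72, adjusted p = 0.00014). For Chgb, the granule protein chromogranin B (chr2:132607014-132620815, plus strand), the P2 libraries gave 1967 and 4225 CPM and the P3 libraries 25.3 and 4.14 (log2 fold change 7.82 ± 0.98, adjusted p = 0.000542). Both are enteroendocrine genes, and in both cases the second P2 library was the higher one. P2 held 327500 and 211200 CPM of Lyz1, the Paneth cell lysozyme (chr10:116724852-116729924, minus strand), against 1497 and 815 in P3 (log2 fold change 7.87 ± 1.36, adjusted p = 0.00239). This gene alone took 18.4% and 13.1% of the nuclear counts of the P2 libraries. Ang4, the antimicrobial ribonuclease angiogenin 4 (chr14:52383553-52393265, minus strand), was at 22200 and 14350 CPM in P2 and 108 and 57.7 in P3 (log2 fold change 7.79 ± 1.05, adjusted p = 0.00073). For Defa5, an alpha-defensin (chr8:22437118-22438054, plus strand), the P2 libraries gave 831 and 583 CPM and the P3 libraries 1.15 and 2.33 (log2 fold change 8.51 ± 0.93, adjusted p = 0.000303). P2 held 442 and 335 CPM of Bhlha15, which encodes Mist1, a factor of heavily secreting cells (chr5:144951155-144955310, plus strand), against 0 and 2.07 in P3 (log2 fold change 8.12 ± 0.99, adjusted p = 0.000466). In each of these genes the groups were far apart, and the first P2 library was the higher one. In fits without 1 of the libraries, calls were lost for Lyz1 (without P3 replicate 1 or 2, adjusted p up to 0.0142).

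Afp, alpha-fetoprotein (chr5:90919740-90937933, plus strand), was at 991 and 1688 CPM in P2 and 4.6 and 2.84 in P3 (log2 fold change 8.57 ± 1.76, adjusted p = 0.00544). For Pnliprp2, a lipase related to pancreatic lipase (chr19:58834213-58852023, plus strand), the P2 libraries gave 7517 and 3309 CPM and the P3 libraries 40.9 and 11.9 (log2 fold change 7.73 ± 1.08, adjusted p = 0.000854). P2 held 1218 and 832 CPM of Habp2, a secreted serine protease (chr19:56361627-56395312, plus strand), against 2.88 and 5.69 in P3 (log2 fold change 7.79 ± 1.03, adjusted p = 0.000658). Habp2 overlaps exons of Nrap on the other strand, which counting without strand cannot separate from it. Nupr1, a stress-induced nuclear protein (chr7:133766763-133770524, minus strand), was at 1077 and 598 CPM in P2 and 5.18 and 1.03 in P3 (log2 fold change 8.36 ± 0.99, adjusted p = 0.000411). For Slc1a4, a carrier of neutral amino acids (chr11:20202183-20232716, minus strand), the P2 libraries gave 332 and 242 CPM and the P3 libraries 1.73 and 1.03 (log2 fold change 7.8 ± 0.47, adjusted p = 0.000104). P2 held 479 and 312 CPM of Lama5, a laminin chain of the basement membrane (chr2:179911078-179960564, minus strand), against 0.575 and 1.81 in P3 (log2 fold change 8.12 ± 0.60, adjusted p = 0.000123). The P2 values of all 6 genes were at or above 242 CPM, and the P3 values at or below 40.9 CPM. When single libraries were left out, calls were lost for Afp (without any 1 of the 4, adjusted p up to 0.0355).

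The 12 largest differences towards P3 were taken by the same rule with the populations exchanged. Rbp7, a retinol-binding protein (chr4:148823796-148829087, minus strand), was at 0.377 and 1.03 CPM in P2 and 59.8 and 67.7 in P3 (log2 fold change -6.36 ± 0.58, adjusted p = 0.000178). For Slc1a1, a glutamate carrier (chr19:28909539-28988450, plus strand), the P2 libraries gave 3.01 and 3.34 CPM and the P3 libraries 214 and 158 (log2 fold change -5.85 ± 0.33, adjusted p = 0.000104). P2 held 94.5 and 107 CPM of Dmbt1, a secreted mucosal defence protein (chr7:138175590-138265140, plus strand), against 6006 and 3952 in P3 (log2 fold change -5.63 ± 0.44, adjusted p = 0.000135). Both libraries of P3 were high for the 3 genes, and Slc1a1 overlaps exons of 4430402I18Rik on the other strand. Slc26a3, the chloride and bicarbonate exchanger of the apical membrane (chr12:32075736-32158782, plus strand), was at 3.39 and 6.93 CPM in P2 and 341 and 144 in P3 (log2 fold change -5.49 ± 0.63, adjusted p = 0.000359). For Car4, a membrane carbonic anhydrase (chr11:84771288-84779546, plus strand), the P2 libraries gave 15.1 and 5.39 CPM and the P3 libraries 551 and 208 (log2 fold change -5.25 ± 0.69, adjusted p = 0.000653). P2 held 3.01 and 6.67 CPM of Slco2b1, an organic anion carrier (chr7:106806314-106859850, minus strand), against 259.5 and 144 in P3 (log2 fold change -5.31 ± 0.40, adjusted p = 0.000123). In these 3 genes the first P3 library was the higher one; Slco2b1 overlaps Gm15635 on the other strand. Osta, a subunit of the basolateral bile acid exporter (chr16:32475608-32487965, minus strand), was at 5.27 and 4.62 CPM in P2 and 261 and 114 in P3 (log2 fold change -5.24 ± 0.49, adjusted p = 0.000198). For Ces2g, a carboxylesterase (chr8:107485618-107493437, plus strand), the P2 libraries gave 5.65 and 3.08 CPM and the P3 libraries 194 and 123 (log2 fold change -5.22 ± 0.37, adjusted p = 0.000104).

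P2 held 3.01 and 1.54 CPM of Cdc20, the activator of the anaphase-promoting complex (chr4:118105506-118109957, minus strand), against 95.5 and 108 in P3 (log2 fold change -5.53 ± 0.38, adjusted p = 0.000104). Ccnb2, a mitotic cyclin (chr9:70255496-70269361, minus strand), was at 3.77 and 2.05 CPM in P2 and 89.8 and 128 in P3 (log2 fold change -5.28 ± 0.42, adjusted p = 0.000142). For Kif2c, a kinesin that takes microtubules apart at kinetochores (chr4:116832244-116855244, minus strand), the P2 libraries gave 1.13 and 0.77 CPM and the P3 libraries 29.9 and 42.1 (log2 fold change -5.26 ± 0.51, adjusted p = 0.000207). Both libraries of P3 exceeded those of P2 many times over in these genes. P2 held 1.13 and 0.513 CPM of Espl1, separase, which cuts the cohesin that holds sister chromatids (chr15:102126724-102154787, plus strand), against 46.6 and 41.4 in P3 (log2 fold change -5.79 ± 0.38, adjusted p = 0.000104). All 4 are mitotic genes, and they were within a few CPM of 0 in both P2 libraries; exons of Cdc20 overlap Elovl1 on the other strand.

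**Figure D2:**
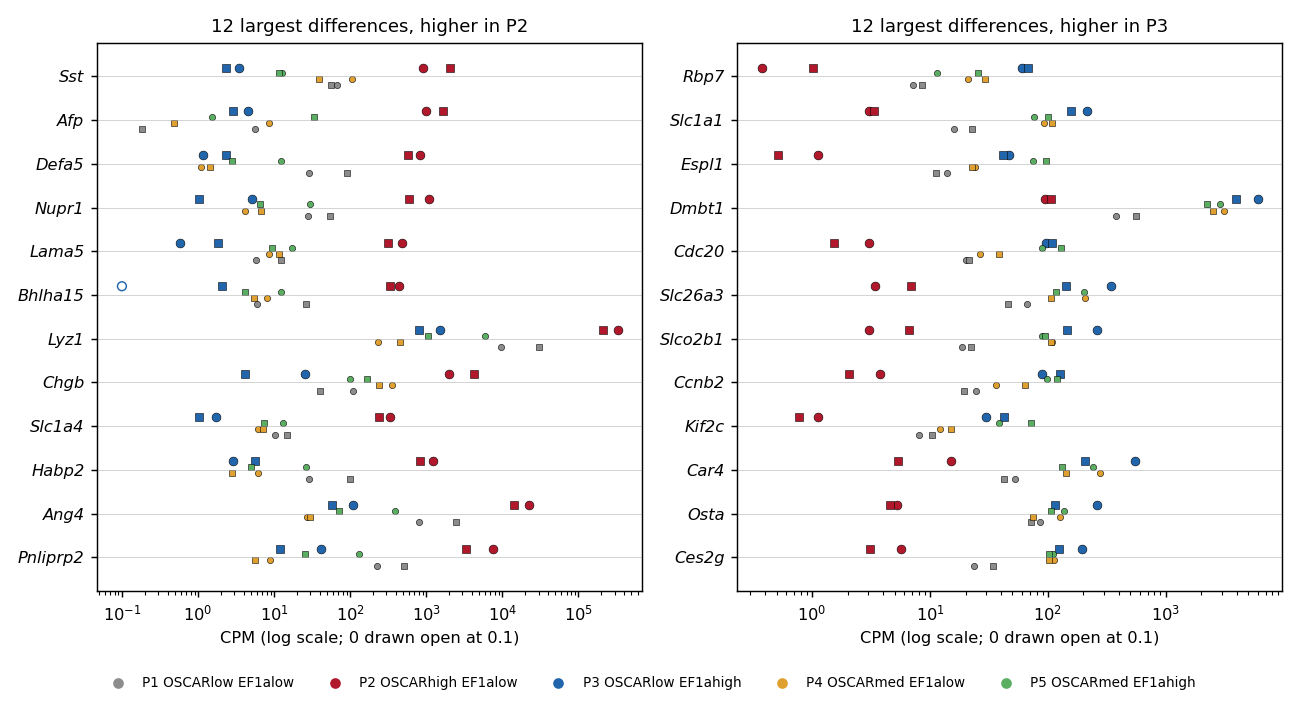
Levels in all 10 libraries (CPM, log axis, open symbols at 0.1 for 0) of the 12 genes with the largest differences in each direction; circles are replicate 1, squares replicate 2, and colours the populations. Lyz1 runs from 815 CPM in a P3 library to 327500 CPM in a P2 library, and for Rbp7 both P2 libraries lie at or below 1.03 CPM and both P3 libraries at or above 59.8 CPM.

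Of 24 Paneth cell markers listed 20 were tested, and all 20 of them were higher in P2, with a median log2 fold change of 7.64, or 7.57 with members at 0 counts set to their bound. For all 20 both P2 libraries lay above all 8 others. Together the Paneth cell markers took 46.9% and 35.7% of the nuclear counts in P2 and 0.499% and 0.330% in P3, with 2.24% and 7.44% in P1. They are mostly alpha-defensins and other peptides stored in the granules at the crypt base. Defa24, the defensin with the most counts, was at 218500 and 148600 CPM in P2 and 1257 and 754 in P3 (log2 fold change 7.51 ± 1.22, adjusted p = 0.00168). For Gm15293, a defensin gene model, the P2 libraries gave 13.2 and 20.3 CPM and the P3 libraries no count (at least 13.4-fold higher in P2, adjusted p = 0.00855). The defensin genes are near copies of each other, and reads that matched several of them were set aside, so that the level of a single defensin is uncertain. Among the 10 most counted genes of the P2 libraries, mostly of this class, lay 48.4% and 41.7% of their nuclear counts, against 5.12% and 4.08% for the 10 most counted genes of P3. With 10000 cells in every sample, more Paneth cells and more RNA per Paneth cell cannot be told apart, which holds for every cell type described here. On removal of 1 library, the 20 Paneth cell markers higher in P2 became 12 (without P3 replicate 2). Not called then were Gm15293 (without any 1 of the 4, adjusted p up to 0.042) and Defa24 (without P3 replicate 2, adjusted p up to 0.0111).

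Goblet cell markers were higher in P2 for 20 of 22 tested (median 4.4), and both P2 libraries were above all 8 others for 21. They took 4.35% and 9.37% of nuclear counts in P2 and 0.261% and 0.689% in P3. P2 held 9433 and 15570 CPM of Muc2, the main mucin of intestinal mucus, against 170.3 and 458 in P3 (log2 fold change 5.31 ± 0.63, adjusted p = 0.000416). Fcgbp, a protein bound into the mucus, was at 24820 and 62360 CPM in P2 and 864 and 1820 in P3 (log2 fold change 5.02 ± 0.71, adjusted p = 0.000921). For Zg16, a lectin that keeps bacteria off the epithelium, the P2 libraries gave 12310 and 30260 CPM and the P3 libraries 428 and 920.2 (log2 fold change 4.98 ± 0.64, adjusted p = 0.000583). The second P2 library was the higher one for the 3 genes, and both lay clear of P3. P2 held 4218 and 3453 CPM of Ccl6, a chemokine, against 57 and 92.8 in P3 (log2 fold change 5.67 ± 0.67, adjusted p = 0.000407). Spdef, a factor that matures goblet and Paneth cells, was at 349.5 and 297 CPM in P2 and 9.78 and 14 in P3 (log2 fold change 4.73 ± 0.40, adjusted p = 0.000159). Mucus genes and their factor thus sat on the same side as the Paneth cell genes, in both libraries.

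Tuft cell markers were less even: 9 of 23 tested were called, all higher in P2 (median 2.85), although both P2 libraries were above all 8 others for 21. For Pou2f3, the factor that tuft cells need to form, the P2 libraries gave 20.0 and 44.4 CPM and the P3 libraries no count (at least 25.7-fold higher in P2, adjusted p = 0.000615). P2 held 9.04 and 20.3 CPM of Hpgds, a prostaglandin D synthase, against 0 and 1.03 in P3 (log2 fold change 4.41 ± 0.92, adjusted p = 0.00578). Both genes were at or near 0 in P3. Trpm5, the taste channel of tuft cells, was at 237 and 347 CPM in P2 and 79.4 and 5.17 in P3 (log2 fold change 2.87 ± 0.86, adjusted p = 0.0281). For Dclk1, the usual tuft cell stain, the P2 libraries gave 145 and 309 CPM and the P3 libraries 62.7 and 3.88 (log2 fold change 2.88 ± 0.93, adjusted p = 0.0375). These 2 genes were present in the first P3 library and far lower in the second. The summed level of the tuft cell markers was 1679 and 2691 CPM in P2 and 555 and 103 CPM in P3. In the leave-one-out fits, the 9 tuft cell markers higher in P2 became 2 to 5 (without P2 replicate 1 or 2) and the 9 tuft cell markers higher in P2 became 16 (without P3 replicate 1). Adjusted p-values then exceeded 0.01 for Hpgds (without any 1 of the 4, adjusted p up to 0.0379).

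Of the enteroendocrine cell markers, 20 of 26 tested were higher in P2 (median 6.34, or 5.89 with members at 0 counts set to their bound) and none was higher in P3 (0 at an unadjusted p under 0.05 and 0 by DESeq2), and both P2 libraries were above all 8 others for 23. Their share of nuclear counts was 0.429% and 1.14% in P2 and 0.0265% and 0.00626% in P3. Among the enteroendocrine peptide hormones 6 of 10 tested were higher in P2 (median 7.44, or 6.04 with members at 0 counts set to their bound). P2 held 151 and 392 CPM of Cck, the hormone that calls for bile and pancreatic juice, against 8.05 and 2.07 in P3 (log2 fold change 5.97 ± 0.70, adjusted p = 0.000411). Sct, secretin, which calls for bicarbonate, was at 209.8 and 731 CPM in P2 and 10.4 and 4.39 in P3 (log2 fold change 6.12 ± 0.79, adjusted p = 0.00062). For Ghrl, the hunger hormone ghrelin, the P2 libraries gave 184 and 301 CPM and the P3 libraries 0 and 3.62 (log2 fold change 6.68 ± 0.88, adjusted p = 0.000658). Each of these hormones was higher in the second P2 library than in the first. P2 held 2349 and 4791 CPM of Gip, the incretin of K cells, against 114 and 4.91 in P3 (log2 fold change 5.95 ± 1.8, adjusted p = 0.0294). Tac1, the precursor of substance P, was at 31.6 and 111 CPM in P2 and no count in either library of P3 (at least 57-fold higher in P2, adjusted p = 0.00177). For Iapp, amylin, the P2 libraries gave 36.1 and 48.5 CPM and the P3 libraries no count (at least 33.8-fold higher in P2, adjusted p = 0.00138). Gip missed the threshold and was also present in the first P3 library, and Tac1 and Iapp had no count in either P3 library. After removal of single libraries, calls were lost for Iapp (without P2 replicate 2, adjusted p up to 0.01) and Tac1 (without P3 replicate 2, adjusted p up to 0.0119).

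Prohormone processing and dense-core granule genes were higher in P2 for 17 of 21 tested (median 6.41). With members at 0 counts set to their bound the median was 5.38. All enteroendocrine cell markers recur in the hormone, granule, serotonin or secretory transcription factor lists, so the counts of these lists are not separate results. P2 held 1050 and 2631 CPM of Chga, chromogranin A, against 40.3 and 5.69 in P3 (log2 fold change 6.41 ± 0.97, adjusted p = 0.00122). Ptprn, a protein of the granule membrane, was at 34.6 and 96.2 CPM in P2 and no count in either library of P3 (at least 52.3-fold higher in P2, adjusted p = 0.00113). For Rab3c, a GTPase of regulated release, the P2 libraries gave 44.1 and 59.3 CPM and the P3 libraries no count (at least 41.3-fold higher in P2, adjusted p = 0.000369). Scg3, a granin, was higher too (at least 34.1-fold higher in P2, adjusted p = 0.000321). For Ptprn, Rab3c and Scg3 neither P3 library held a count. Of 8 enterochromaffin serotonin genes 4 were higher in P2 and 1 in P3 (median 4.8). P2 held 94.2 and 279 CPM of Tph1, the enzyme that limits serotonin synthesis in the gut, against 10.4 and 0.776 in P3 (log2 fold change 5.4 ± 1.05, adjusted p = 0.00406). Lmx1a, a factor of serotonin cells, was at 22.6 and 44.1 CPM in P2 and 0.575 and 0 in P3 (198-fold higher in P2, 95% counting interval 35.3 to 7870, adjusted p = 0.000922). For Trpa1, an irritant-sensing channel, the P2 libraries gave 118 and 199 CPM and the P3 libraries no count (at least 127-fold higher in P2, adjusted p = 0.000325). Enzyme, factor and sensor all lay higher in P2. P2 held 114 and 223 CPM of Maoa, which breaks serotonin down, against 1475 and 672 in P3 (log2 fold change -2.67 ± 0.50, adjusted p = 0.00351). Ddc, the decarboxylase of the pathway, was at 81 and 212 CPM in P2 and 158 and 151 in P3 (log2 fold change -0.07 ± 0.36, adjusted p = 0.902). With 1 library left out, calls were lost for Maoa (without P2 replicate 1 or P3 replicate 1, adjusted p up to 0.0283) and Tph1 (without P2 replicate 2 or P3 replicate 2, adjusted p up to 0.0264).

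Ion channels of excitable enteroendocrine cells were higher in P2 for 10 of 13 tested (median 6.6, or 5.05 with members at 0 counts set to their bound), and both P2 libraries were above all 8 others for all 13. For Abcc8, the sulfonylurea receptor of the potassium channel that couples glucose to secretion, the P2 libraries gave 31.3 and 51.8 CPM and the P3 libraries no count (at least 33.2-fold higher in P2, adjusted p = 0.000196). P2 held 85.1 and 99 CPM of Cacna1h, a calcium channel subunit, against 1.73 and 0.517 in P3 (log2 fold change 6.6 ± 0.71, adjusted p = 0.000292). Both genes were near or at 0 in P3. In fits without 1 of the libraries, the 10 channel genes higher in P2 became 6 (without P2 replicate 2).

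Secretory lineage transcription factors were higher in P2 for 24 of 32 tested (median 4.54, or 4.48 with members at 0 counts set to their bound), and none was higher in P3 (0 at an unadjusted p under 0.05 and 0 by DESeq2). Atoh1, the factor that commits cells to the secretory branch, was at 168 and 189 CPM in P2 and 3.45 and 8.27 in P3 (log2 fold change 4.81 ± 0.41, adjusted p = 0.000159). For Isl1, a factor of hormone cells, the P2 libraries gave 18.1 and 40.0 CPM and the P3 libraries no count (at least 23.2-fold higher in P2, adjusted p = 0.000617). P2 held 731 and 723 CPM of Xbp1, the factor that enlarges the endoplasmic reticulum, against 264 and 174 in P3 (log2 fold change 1.73 ± 0.26, adjusted p = 0.00117). The commitment factor and the late factors were thus both higher in P2. Neurog3, the short-lived factor of enteroendocrine precursors, was at 0 and 1.8 CPM in P2 and 0 and 2.84 in P3 (log2 fold change -0.77 ± 1.16, adjusted p = 0.633). Neurog3 was highest in P4, at 18.6 and 14.5 CPM. Among Notch pathway genes 7 of 28 tested were higher in P2 and 4 in P3 (median 0.21). The genes higher in P2 included ligands. For Dll1, a ligand of secretory precursors, the P2 libraries gave 111 and 111 CPM and the P3 libraries 34 and 25.3 (log2 fold change 1.92 ± 0.26, adjusted p = 0.000707). P2 held 112 and 91.6 CPM of Dll4, a second ligand, against 3.45 and 15 in P3 (log2 fold change 3.34 ± 0.52, adjusted p = 0.00138). Dll3, a ligand-like protein that acts within its own cell, was at 34.3 and 19.5 CPM in P2 and no count in either library of P3 (at least 21.5-fold higher in P2, adjusted p = 0.00584). Among the genes higher in P3 were receptors and targets of the pathway. When single libraries were left out, calls were lost for Dll3 (without any 1 of the 4, adjusted p up to 0.0332).

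For Notch1, a receptor of the crypt, the P2 libraries gave 11.7 and 10.0 CPM and the P3 libraries 41.4 and 62 (log2 fold change -2.27 ± 0.37, adjusted p = 0.00168). P2 held 4.52 and 3.59 CPM of Notch2, a second receptor, against 46.6 and 35.2 in P3 (log2 fold change -3.33 ± 0.32, adjusted p = 0.000207). Hes1, the repressor switched on by Notch, was at 11.3 and 13.1 CPM in P2 and 34.5 and 55.1 in P3 (log2 fold change -1.89 ± 0.32, adjusted p = 0.00232). For the 3 genes both P3 libraries lay above both P2 libraries. For Nrarp, a feedback inhibitor and direct target, the P2 libraries gave 6.03 and 4.62 CPM and the P3 libraries 51.8 and 38 (log2 fold change -3.08 ± 0.30, adjusted p = 0.000207). P2 held 71.2 and 36.2 CPM of Notch4, a receptor known from endothelium, against 1.15 and 2.84 in P3 (log2 fold change 4.58 ± 0.50, adjusted p = 0.000303). Mib1, the ligase that activates ligands, was at 314 and 184 CPM in P2 and 69 and 101 in P3 (log2 fold change 1.54 ± 0.31, adjusted p = 0.00507). Scaled to total nuclear counts, 3 Notch pathway genes were higher in P2 and 7 in P3. On removal of 1 library, the 7 Notch pathway genes higher in P2 became 4 (without P3 replicate 1) and the 4 Notch pathway genes higher in P3 became 2 (without P2 replicate 1 or 2). Not called then were Notch1 (without P2 replicate 1 or 2, adjusted p up to 0.0188), Hes1 (without P2 replicate 1 or 2 or P3 replicate 2, adjusted p up to 0.0223) and Mib1 (without P2 replicate 1 or P3 replicate 1, adjusted p up to 0.0341).

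Secretory cells fold large amounts of protein in the endoplasmic reticulum (ER), and the unfolded protein response adjusts its capacity. Of the ER folding, translocation and unfolded protein response genes 14 of 30 tested were higher in P2 (median 0.93), and none was higher in P3 (1 at an unadjusted p under 0.05 and 1 by DESeq2); both P2 libraries were above all 8 others for 24. For Ern1, the ER stress sensor IRE1 alpha, the P2 libraries gave 462 and 338 CPM and the P3 libraries 69.6 and 85.1 (log2 fold change 2.37 ± 0.36, adjusted p = 0.00132). P2 held 627 and 427 CPM of Ern2, its counterpart of mucus cells, IRE1 beta, against 10.9 and 19.9 in P3 (log2 fold change 5.04 ± 0.49, adjusted p = 0.000215). Derl3, a protein that passes misfolded proteins out of the ER, was at 23 and 20.0 CPM in P2 and 0 and 0.776 in P3 (39.6-fold higher in P2, 95% counting interval 13.3 to 195, adjusted p = 0.00697). The 2 members with the highest CPM did not pass the test. For P4hb, a disulfide isomerase, the P2 libraries gave 3920 and 3359 CPM and the P3 libraries 2742 and 1331 (log2 fold change 0.84 ± 0.41, adjusted p = 0.14). P2 held 1183 and 898 CPM of Hspa5, the chaperone BiP, against 772 and 562 in P3 (log2 fold change 0.64 ± 0.28, adjusted p = 0.104). Scaled to total nuclear counts, 5 members were higher in P2 and 4 higher in P3, so that a count in 1 direction depended on the scaling. In the leave-one-out fits, the 14 ER genes higher in P2 became 9 (without P2 replicate 1). Adjusted p-values then exceeded 0.01 for Derl3 (without any 1 of the 4, adjusted p up to 0.0326).

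Atf4 program genes, which supply amino acids and are induced by the same stress, were higher in P2 for 10 of 16 tested and higher in P3 for 1 (median 2.42). Atf4, the factor itself, was at 537 and 509 CPM in P2 and 198 and 196 in P3 (log2 fold change 1.41 ± 0.20, adjusted p = 0.00099). For Asns, asparagine synthetase, the P2 libraries gave 636 and 356 CPM and the P3 libraries 29.3 and 51.5 (log2 fold change 3.59 ± 0.38, adjusted p = 0.000283). P2 held 183 and 129 CPM of Psat1, an enzyme of serine synthesis, against 18.4 and 15.8 in P3 (log2 fold change 3.2 ± 0.25, adjusted p = 0.000123). Both enzymes were several times more abundant in each P2 library than in each P3 library. Aldh1l2, a mitochondrial folate enzyme, was at 119 and 52.1 CPM in P2 and no count in either library of P3 (at least 68.5-fold higher in P2, adjusted p = 0.000583). For Slc7a11, the cystine carrier, the P2 libraries gave 8.66 and 13.9 CPM and the P3 libraries no count (at least 9.0-fold higher in P2, adjusted p = 0.00363). P2 held 53.5 and 31.1 CPM of Cth, which makes cysteine from cystathionine, against 182 and 134 in P3 (log2 fold change -1.91 ± 0.39, adjusted p = 0.00548). Cth was the only member of the program called higher in P3. After removal of single libraries, the 10 Atf4 program genes higher in P2 became 6 (without P2 replicate 1 or 2). Lost calls were those of Cth (without P2 replicate 1 or 2 or P3 replicate 1, adjusted p up to 0.0449) and Slc7a11 (without P2 replicate 1 or 2 or P3 replicate 2, adjusted p up to 0.0261).

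**Figure D3:**
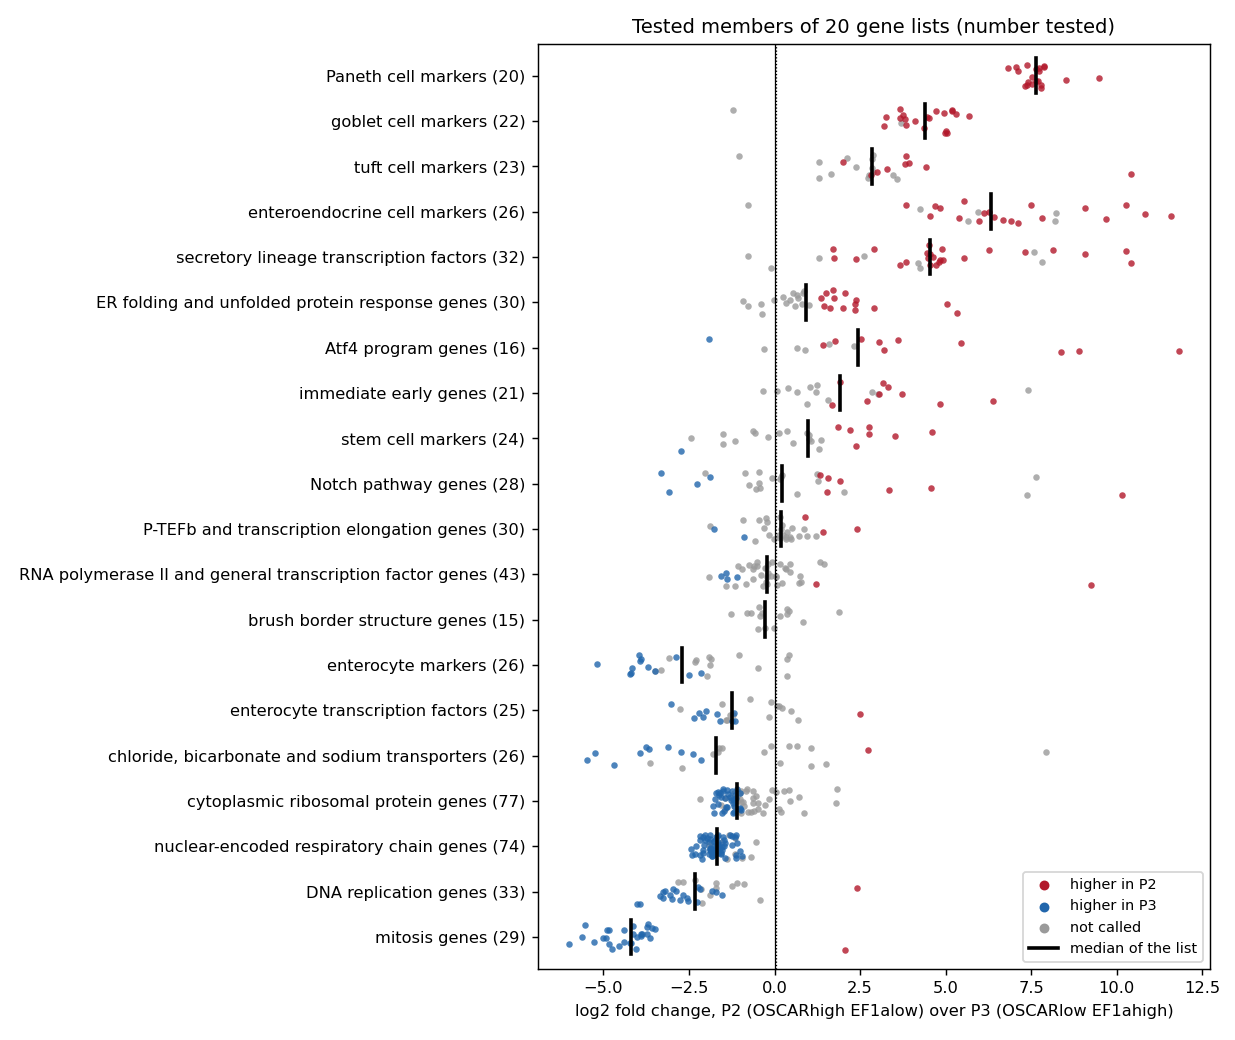
Log2 fold change of P2 over P3 for each tested member of 20 gene lists, 1 point per gene; red points were called higher in P2 and blue points higher in P3 at an adjusted p under 0.01, grey points were not called, and the bar marks the list's median. The Paneth cell markers all lie at or above 6.81, and the mitosis genes all lie below 0 except Plk1 at 2.07.

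Enterocyte markers were on the side of P3: 12 of 26 tested were higher in P3 (median -2.69), and none was higher in P2 (0 at an unadjusted p under 0.05 and 0 by DESeq2). Their share of nuclear counts was 5.36% and 2.12% in P3 and 0.314% and 0.652% in P2, with 7.18% and 5.34% in P1, and both P2 libraries were below all 8 others for 16. Alpi, intestinal alkaline phosphatase, was at 20.3 and 30.5 CPM in P2 and 646 and 319 in P3 (log2 fold change -4.23 ± 0.56, adjusted p = 0.000684). For Sis, the sucrase and isomaltase of the brush border, the P2 libraries gave 322 and 383 CPM and the P3 libraries 7222 and 1858 (log2 fold change -3.69 ± 0.77, adjusted p = 0.00564). P2 held 753 and 643 CPM of Anpep, aminopeptidase N, against 5718 and 1148 in P3 (log2 fold change -2.3 ± 0.81, adjusted p = 0.0519). In these genes the first P3 library was the higher one. Sugar and peptide digestion and transport genes were higher in P3 for 13 of 21 tested (median -3.09). Most enterocyte markers recur in this list or in the fat absorption and brush border lists below, so these counts are not separate results. Lct, lactase, was at 42.9 and 38.5 CPM in P2 and 961 and 306 in P3 (log2 fold change -3.96 ± 0.69, adjusted p = 0.00252). For Enpep, glutamyl aminopeptidase, the P2 libraries gave 55.4 and 27.2 CPM and the P3 libraries 2459 and 541 (log2 fold change -5.19 ± 1.0, adjusted p = 0.00392). Both are enzymes of the outer surface of the enterocyte. With 1 library left out, the 12 enterocyte markers higher in P3 became 2 to 3 (without P2 replicate 1 or 2 or P3 replicate 1) and the 13 digestion genes higher in P3 became 1 to 5 (without P2 replicate 1 or 2 or P3 replicate 1). Calls were then lost for Sis and Enpep (without P2 replicate 1 or 2 or P3 replicate 1, adjusted p up to 0.0452) and Lct (without P2 replicate 1 or 2, adjusted p up to 0.0255).

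Fat absorption genes were higher in P3 for 8 of 21 tested (median -2.33). P2 held 107 and 81.6 CPM of Mttp, which loads lipid onto apolipoprotein B, against 2507 and 978 in P3 (log2 fold change -4.21 ± 0.59, adjusted p = 0.000891). Mogat2, which rebuilds triglyceride, was at 12.8 and 28.5 CPM in P2 and 344 and 156 in P3 (log2 fold change -3.57 ± 0.56, adjusted p = 0.00145). For Apoa1, an apolipoprotein of secreted particles, the P2 libraries gave 159.7 and 311 CPM and the P3 libraries 3987 and 1357 (log2 fold change -3.5 ± 0.97, adjusted p = 0.0197). The last of these was not called, and its P3 libraries were far apart. P2 held 298 and 1856 CPM of Fabp2, the fatty acid-binding protein of the gut, against 3210 and 1188 in P3 (log2 fold change -1.03 ± 0.93, adjusted p = 0.413). None of the 15 brush border structure genes was called by edgeR (median -0.28), also without any 1 of the 4 libraries. At an unadjusted p under 0.05, 2 were higher in P2 and 1 higher in P3, and DESeq2 called 1 and 0. Vil1, the actin-bundling protein villin, was at 812 and 1499 CPM in P2 and 2216 and 1050 in P3 (log2 fold change -0.50 ± 0.49, adjusted p = 0.451). For Krt20, a keratin of mature cells, the P2 libraries gave 366 and 1380 CPM and the P3 libraries 888 and 465 (log2 fold change 0.37 ± 0.60, adjusted p = 0.661). P2 held 400.3 and 755 CPM of Myo1a, the motor of the microvillus, against 1887 and 894 in P3 (log2 fold change -1.27 ± 0.48, adjusted p = 0.0658). The structure genes and the enzymes of the brush border were not tested against each other. In fits without 1 of the libraries, the 8 fat absorption genes higher in P3 became 2 to 4 (without P2 replicate 1 or 2 or P3 replicate 1). No call then remained for Mogat2 (without P2 replicate 1, adjusted p up to 0.0147) and Mttp (without P2 replicate 2, adjusted p up to 0.0109).

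Enterocyte transcription factors were higher in P3 for 10 of 25 tested and higher in P2 for 1 (median -1.25). Vdr, the vitamin D receptor, was at 121 and 159 CPM in P2 and 638 and 483 in P3 (log2 fold change -2.0 ± 0.28, adjusted p = 0.000862). For Nr5a2, a nuclear receptor of crypt cells, the P2 libraries gave 9.04 and 5.9 CPM and the P3 libraries 60.4 and 60.8 (log2 fold change -3.04 ± 0.26, adjusted p = 0.000171). P2 held 10.9 and 13.6 CPM of Ppara, a receptor for fatty acids, against 80.5 and 48.4 in P3 (log2 fold change -2.37 ± 0.47, adjusted p = 0.0044). Each was higher in both P3 libraries. Hnf4a, a central factor of enterocyte identity, was at 519 and 768 CPM in P2 and 1052 and 1081 in P3 (log2 fold change -0.73 ± 0.29, adjusted p = 0.0806). For Klf4, a factor of cells that have stopped dividing, goblet cells among them, the P2 libraries gave 262 and 436 CPM and the P3 libraries 66.7 and 58.4 (log2 fold change 2.48 ± 0.33, adjusted p = 0.000716). Fatty acid oxidation and ketogenesis genes were higher in P3 for 11 of 21 tested (median -1.22), and none was higher in P2 (0 at an unadjusted p under 0.05 and 0 by DESeq2). P2 held 171 and 296 CPM of Hadh, an enzyme of beta-oxidation, against 1007 and 575 in P3 (log2 fold change -1.76 ± 0.36, adjusted p = 0.00551). Hadha, a subunit of the trifunctional protein, was at 161 and 186 CPM in P2 and 556 and 394 in P3 (log2 fold change -1.45 ± 0.25, adjusted p = 0.00227). For Bdh1, a ketone body enzyme, the P2 libraries gave 74.9 and 80.8 CPM and the P3 libraries 268 and 254 (log2 fold change -1.74 ± 0.22, adjusted p = 0.0006). When single libraries were left out, the 10 transcription factors higher in P3 became 2 to 4 (without P2 replicate 1 or P3 replicate 1) and the 11 fatty acid oxidation genes higher in P3 became 4 to 7 (without P2 replicate 1 or 2). The threshold was then missed by Hadha (without P2 replicate 1 or 2, adjusted p up to 0.02), Ppara (without P2 replicate 1 or 2 or P3 replicate 1, adjusted p up to 0.0371) and Hadh (without P2 replicate 1 or P3 replicate 1, adjusted p up to 0.0367).

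Of the chloride, bicarbonate and sodium transporters 10 of 26 tested were higher in P3 and 1 was higher in P2 (median -1.73). P2 held 33.5 and 17.7 CPM of Cftr, the chloride channel mutated in cystic fibrosis, against 489.6 and 289 in P3 (log2 fold change -3.94 ± 0.37, adjusted p = 0.000196). Slc9a3, the sodium and proton exchanger of absorption, was at 4.52 and 2.05 CPM in P2 and 125 and 39.8 in P3 (log2 fold change -4.68 ± 0.62, adjusted p = 0.000657). For Guca2a, guanylin, a peptide that drives chloride secretion, the P2 libraries gave 1482 and 1269 CPM and the P3 libraries 266 and 148 (log2 fold change 2.73 ± 0.44, adjusted p = 0.00156). Cftr and Slc9a3 were thus on the P3 side and the peptide on the P2 side. Best2, another member, had 281 counts in P2 and 1 in P3 (240-fold, 95% counting interval 42.8 to 9530) and was not called. By sign, 8 of the 26 members were higher in P2 and 18 higher in P3. Iron uptake, storage and export genes were called for 1 member higher in P2 (8.33%) and 2 higher in P3 (16.7%), of 12 tested. P2 held 203 and 129.6 CPM of Cybrd1, the ferric reductase of the duodenal surface, against no count in P3 (at least 133-fold higher in P2, adjusted p = 0.000287). Tfrc, the transferrin receptor, was at 82.5 and 45.9 CPM in P2 and 698 and 644 in P3 (log2 fold change -3.39 ± 0.31, adjusted p = 0.000193). The third called gene was Aco1 (-1.38 ± 0.30), an iron-sensing RNA-binding protein. Cytochrome P450 genes were higher in P3 for 3 of 17 tested (17.6%, median -2.32). They included Cyp4f14 (-3.36 ± 0.54), a fatty acid hydroxylase, and Cyp3a25 (-2.98 ± 0.66), a drug-metabolising enzyme. On removal of 1 library, the 2 iron genes higher in P3 became 1 (without P2 replicate 1 or 2 or P3 replicate 1), the 3 cytochrome P450 genes higher in P3 became 0 to 1 (without P2 replicate 1 or 2) and the 3 cytochrome P450 genes higher in P3 became 7 (without P3 replicate 2). Not called then were Cyp4f14 (without P2 replicate 1, adjusted p up to 0.018), Aco1 (without P2 replicate 1 or 2 or P3 replicate 1, adjusted p up to 0.0541) and Cyp3a25 (without any 1 of the 4, adjusted p up to 0.0586).

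**Figure D4:**
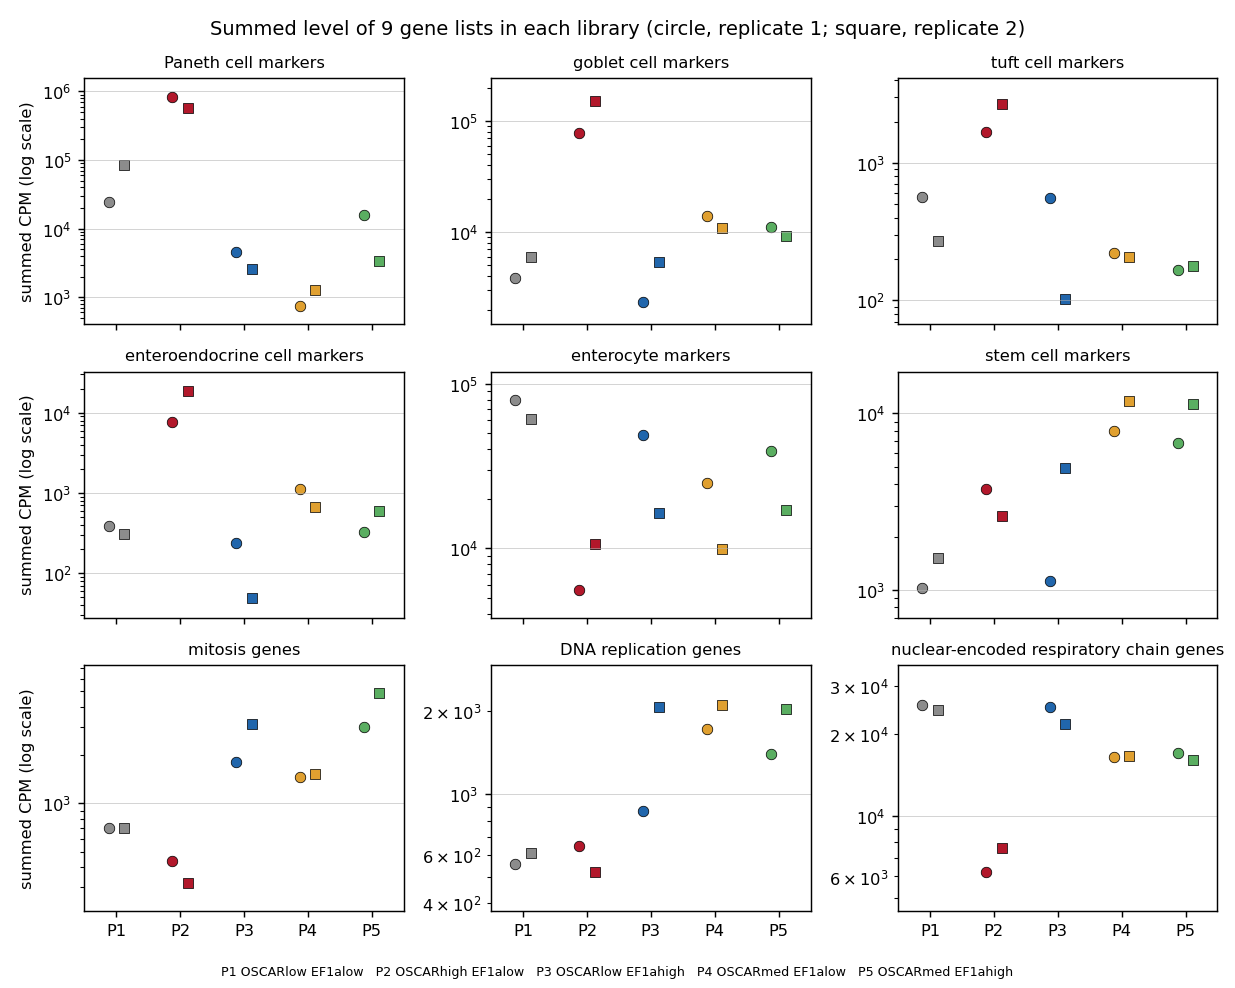
Summed CPM (log axis) of 9 gene lists in each of the 10 libraries, by population; circles are replicate 1 and squares replicate 2. Both P2 libraries are highest for the Paneth, goblet, tuft and enteroendocrine lists and lowest for mitosis and respiratory chain genes, whereas the 2 P3 libraries differ from each other for tuft and enteroendocrine markers.

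Stem cell markers did not move as 1 group: 7 of 24 tested were higher in P2 and 1 in P3 (median 0.96). For Lgr5, the Wnt co-receptor that marks crypt base columnar stem cells, the P2 libraries gave 99.4 and 93.4 CPM and the P3 libraries 4.6 and 10.9 (log2 fold change 3.53 ± 0.34, adjusted p = 0.000207). In P4 it was at 119 and 140.1 CPM, above both. P2 held 274 and 176 CPM of Ephb3, a receptor that keeps cells at the crypt base, Paneth cells included, against 6.33 and 11.4 in P3 (log2 fold change 4.59 ± 0.47, adjusted p = 0.000271). Sox9, a factor of stem and Paneth cells, was at 184 and 145 CPM in P2 and 22.4 and 39.6 in P3 (log2 fold change 2.38 ± 0.31, adjusted p = 0.000634). Lgr5 in P2 thus lay between P3 and P4. For Olfm4, a secreted protein of the same stem cells, the P2 libraries gave 578 and 473 CPM and the P3 libraries 343 and 2615 (log2 fold change -1.5 ± 0.78, adjusted p = 0.161). In P4 Olfm4 reached 4390 and 6840 CPM. The 2 P3 libraries were far apart for Olfm4. P2 held 5.27 and 3.85 CPM of Ascl2, the factor that sets the stem cell program, against 4.03 and 9.05 in P3 (log2 fold change -0.62 ± 0.55, adjusted p = 0.411). Slc12a2, a sodium, potassium and chloride carrier, was at 1043 and 411 CPM in P2 and 114 and 572 in P3 (log2 fold change 1.08 ± 0.65, adjusted p = 0.222). For Aqp4, a water channel, the P2 libraries gave 6.78 and 8.98 CPM and the P3 libraries 36.8 and 68.5 (log2 fold change -2.74 ± 0.34, adjusted p = 0.00054). Of these 4 genes Aqp4 was called. With total nuclear counts 4 were higher in P2 and 3 in P3. In the leave-one-out fits, the 7 stem cell markers higher in P2 became 11 (without P3 replicate 2).

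Wnt receptors, effectors and targets were higher in P2 for 7 of 28 tested and higher in P3 for 2 (median 0.26). P2 held 249.7 and 238 CPM of Wnt3, the Wnt ligand made by Paneth cells, against 0 and 2.58 in P3 (log2 fold change 7.15 ± 0.94, adjusted p = 0.000671). Nkd1, a feedback target, was at 89.2 and 73.9 CPM in P2 and 3.45 and 1.55 in P3 (log2 fold change 5.16 ± 0.78, adjusted p = 0.0012). For Lgr4, a receptor for R-spondin, the P2 libraries gave 637 and 389.5 CPM and the P3 libraries 144 and 198 (log2 fold change 1.58 ± 0.33, adjusted p = 0.00551). The ligand was at or near 0 in P3. P2 held 50.5 and 60.8 CPM of Fzd5, a Wnt receptor, against 555 and 314 in P3 (log2 fold change -2.96 ± 0.29, adjusted p = 0.00022). Ccnd1, cyclin D1, was at 11.7 and 16.9 CPM in P2 and 41.4 and 111 in P3 (log2 fold change -2.42 ± 0.51, adjusted p = 0.00594). For Ctnnb1, beta-catenin, the P2 libraries gave 882 and 1082 CPM and the P3 libraries 922 and 839 (log2 fold change 0.16 ± 0.26, adjusted p = 0.661). Receptor Fzd5 and cyclin D1 were higher in P3. With total nuclear counts 3 were higher in P2 and 4 in P3. After removal of single libraries, the 7 Wnt genes higher in P2 became 4 (without P2 replicate 1) and the 2 Wnt genes higher in P3 became 1 (without P2 replicate 1 or 2 or P3 replicate 2). Lost calls were those of Ccnd1 (without P2 replicate 1 or 2 or P3 replicate 2, adjusted p up to 0.0513) and Lgr4 (without P2 replicate 1 or P3 replicate 1 or 2, adjusted p up to 0.0378).

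Among the 10 tested of the proposed reserve stem cell markers, genes put forward for stem cells that divide rarely, 3 were higher in P2 and 2 in P3 (1 and 2 with total nuclear counts). P2 held 18.1 and 21.3 CPM of Prox1, also a factor of enteroendocrine and tuft cells, against 0.575 and 1.03 in P3 (log2 fold change 4.47 ± 0.60, adjusted p = 0.000704). Hopx, a homeodomain cofactor, was at 205 and 146 CPM in P2 and 21.3 and 62.3 in P3 (log2 fold change 2.02 ± 0.41, adjusted p = 0.00479). Dll1, given above, was the third gene higher in P2. For Tert, the catalytic subunit of telomerase, the P2 libraries gave 1.88 and 1.8 CPM and the P3 libraries 8.05 and 10.3 (log2 fold change -2.33 ± 0.48, adjusted p = 0.00529). P2 held 330.3 and 622 CPM of Krt19, a keratin of simple epithelium, against 2891 and 1900 in P3 (log2 fold change -2.33 ± 0.39, adjusted p = 0.00205). For Tert these are 5 and 7 counts in P2 and 14 and 40 counts in P3. Bmi1, a Polycomb protein, was at 28.2 and 27.2 CPM in P2 and 7.48 and 14 in P3 (log2 fold change 1.32 ± 0.32, adjusted p = 0.0116). For Lrig1, a brake on ERBB receptors, the P2 libraries gave 276 and 204 CPM and the P3 libraries 88 and 149 (log2 fold change 1.01 ± 0.32, adjusted p = 0.0364). With 1 library left out, the 2 reserve stem cell markers higher in P3 became 0 to 1 (without P2 replicate 1 or 2 or P3 replicate 2). Calls were then lost for Krt19 (without P2 replicate 1, adjusted p up to 0.0125), Hopx (without P2 replicate 1 or 2, adjusted p up to 0.0314) and Tert (without P2 replicate 1 or 2 or P3 replicate 2, adjusted p up to 0.0375).

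ERBB receptors and ligands carry growth signals, and 1 of 13 tested (7.69%) was higher in P2 and 2 (15.4%) higher in P3. P2 held 86.2 and 73.4 CPM of Egf, epidermal growth factor, a ligand made by Paneth cells, against 0 and 1.29 in P3 (log2 fold change 6.51 ± 0.89, adjusted p = 0.000755). Erbb2, the receptor that binds no ligand of its own, was at 33.9 and 60.3 CPM in P2 and 295 and 221 in P3 (log2 fold change -2.44 ± 0.31, adjusted p = 0.000553). For Erbb3, its partner, the P2 libraries gave 284 and 332 CPM and the P3 libraries 769.8 and 508 (log2 fold change -1.05 ± 0.26, adjusted p = 0.0117). The other gene higher in P3 was Lrig3 (-2.08 ± 0.34). Erbb2 overlaps 1810046J19Rik on the other strand. Of 19 BMP signalling and Id genes 2 (10.5%) were higher in P2 and 1 (5.26%) in P3, against 1 and 3 with total nuclear counts. These were the ligands Bmp7 (3.34 ± 0.57) and Bmp2 (2.65 ± 0.59) on the side of P2 and Bmp3 (-2.72 ± 0.61), which can oppose the others, on that of P3. Eph receptors and ephrins, which position cells along the crypt, were higher in P2 for 1 (8.33%) and in P3 for 2 (16.7%) of 12 tested (1 and 7 with total nuclear counts, and 1 and 5 by DESeq2). Beside Ephb3, given above, these were Ephb4 (-1.59 ± 0.28) and Efna1 (-0.95 ± 0.21). In fits without 1 of the libraries, the 2 ERBB genes higher in P3 became 1 (without P2 replicate 1 or 2), the 2 BMP genes higher in P2 became 0 to 1 (without P2 replicate 1 or 2 or P3 replicate 1) and the 2 Eph genes higher in P3 became 1 (without P2 replicate 1 or P3 replicate 1 or 2). No call then remained for Lrig3 (without P2 replicate 1 or 2, adjusted p up to 0.0167), Bmp3 (without P2 replicate 1 or 2 or P3 replicate 1, adjusted p up to 0.0638), Efna1 (without any 1 of the 4, adjusted p up to 0.0481), Bmp2 (without P2 replicate 1 or 2 or P3 replicate 2, adjusted p up to 0.0539), Bmp7 (without P2 replicate 1 or P3 replicate 1, adjusted p up to 0.015) and Ephb4 (without P2 replicate 2 or P3 replicate 2, adjusted p up to 0.0259).

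Genes of cell division lay on the side of P3 almost without exception. Of 29 mitosis genes tested 28 were higher in P3 and 1 was higher in P2 (median -4.21), and both P2 libraries were below all 8 others for 28. The mitosis genes took 0.0246% and 0.0196% of nuclear counts in P2 and 0.200% and 0.405% in P3. P2 held 39.9 and 31.8 CPM of Mki67, the proliferation marker Ki-67, against 309 and 645 in P3 (log2 fold change -3.74 ± 0.41, adjusted p = 0.000316). Top2a, the topoisomerase that untangles chromosomes, was at 32.8 and 20.8 CPM in P2 and 299 and 413 in P3 (log2 fold change -3.74 ± 0.37, adjusted p = 0.00022). For Ccnb1, the main mitotic cyclin, the P2 libraries gave 0.753 and 0 CPM and the P3 libraries 24.7 and 19.1 (68.4-fold lower in P2, 95% counting interval 18.5 to 571, adjusted p = 0.000782). These 3 genes were low in both P2 libraries and high in both of P3. P2 held 0 and 0.513 CPM of Ndc80, a protein that ties chromosomes to the spindle, against 10.4 and 20.9 in P3 (57.9-fold lower in P2, 95% counting interval 15.6 to 484, adjusted p = 0.00342). For the 4 genes the 2 populations were at least several times apart in every pair of libraries. Plk1, a kinase of mitotic entry and the exception, was at 283 and 185 CPM in P2 and 33.4 and 76 in P3 (log2 fold change 2.07 ± 0.37, adjusted p = 0.00261). Plk1 was at 21.1 and 20.2 CPM in P1 and 44.4 and 52.4 CPM in P4 and 84.5 and 111 CPM in P5. Counting was without strand, and the part of reads from the other strand in the Plk1 values was not tested. When single libraries were left out, calls were lost for Plk1 (without P2 replicate 1, adjusted p up to 0.0191) and Ndc80 (without P2 replicate 1 or 2 or P3 replicate 2, adjusted p up to 0.0266).

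Promoter sequences of 4 of the genes above are shown because mitotic genes share 2 motifs that are well known from cycle-regulated promoters. These are the CCAAT box, bound by NF-Y, and TTTGAA, the core of the cell cycle homology region. Alpi is an enterocyte marker with both motifs marked in it, whereas only 2 of 22 enterocyte markers held CAAAGTCCA. In stretches not shown, Slc26a3 held TATAAA but no CAAAGTCCA, and Lyz1 and Ang4 held no TATAAA. They run from 120 bases before to 10 bases after the annotated start of the gene (RefSeq, GRCm38.p6), at chr4:118437334-118437463 (minus strand) for Cdc20, chr9:70421545-70421674 (minus strand) for Ccnb2, chr7:122159315-122159444 (plus strand) for Plk1, chr1:87101597-87101726 (minus strand) for Alpi. Capitals mark matches of CCAAT or TTTGAA in the first 3, of which Plk1 holds CCAAT alone, and of TATAAA and CAAAGTCCA, a site of HNF4, in Alpi, on either strand, and are matches of letters only.
Cdc20: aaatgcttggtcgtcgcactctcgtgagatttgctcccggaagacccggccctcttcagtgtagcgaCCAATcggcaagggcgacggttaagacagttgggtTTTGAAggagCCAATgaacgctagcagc
Ccnb2: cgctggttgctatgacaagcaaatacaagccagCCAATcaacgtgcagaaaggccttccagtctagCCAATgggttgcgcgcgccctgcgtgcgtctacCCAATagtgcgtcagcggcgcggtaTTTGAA
Plk1: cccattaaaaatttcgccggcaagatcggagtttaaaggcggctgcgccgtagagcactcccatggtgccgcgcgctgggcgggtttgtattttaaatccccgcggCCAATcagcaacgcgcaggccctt
Alpi: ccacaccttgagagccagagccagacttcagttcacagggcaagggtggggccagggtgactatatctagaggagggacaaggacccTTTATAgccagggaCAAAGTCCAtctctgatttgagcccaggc

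A window from 250 bases before to 10 after the start was searched on both strands. CCAAT occurred in 20 of 25 mitosis genes with a promoter in the table (80.0%), and in 35.2% of all 27025 promoters. Among the 9166 tested genes with a promoter the share was 37.3%. TTTGAA occurred in 12 of the 25 (48.0%, against 16.6% of all promoters and 10.8% of tested genes). Both motifs together were in 48.0%, against 6.0% of all promoters and 4.33% of tested genes. Of the 27 DNA replication genes with a promoter 59.3% held CCAAT, 14.8% TTTGAA and 11.1% both. The letters TATAAA were in 0 of the 25 mitosis genes and in 8 of 22 enterocyte markers (36.4%). They were in 13.3% of all promoters and 6.72% of tested genes. Only 9 of 20 tested Paneth cell markers had a promoter in the table, and 4 of these 9 held TATAAA (44.4%). CAAAGTCCA was in 2 of the 22 enterocyte markers (9.09%), against 0.396% of all promoters and 0.436% of tested genes. Overlap between matches of different motifs was not examined, and a match is not a bound site.

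DNA replication genes were higher in P3 for 20 of 33 tested and higher in P2 for 1 (median -2.34), with both P2 libraries below all 8 others for 23. For Mcm5, a subunit of the replicative helicase, the P2 libraries gave 7.16 and 5.39 CPM and the P3 libraries 36.2 and 149 (log2 fold change -3.93 ± 0.63, adjusted p = 0.00161). P2 held 24.1 and 20.0 CPM of Mcm6, another subunit, against 61 and 236 in P3 (log2 fold change -2.77 ± 0.53, adjusted p = 0.00395). Gins2, a helicase cofactor, was at 1.13 and 1.03 CPM in P2 and 5.18 and 28.7 in P3 (log2 fold change -4.02 ± 0.80, adjusted p = 0.00469). In these genes the second P3 library was the higher one, at several times the level of the first. For Rfc1, the large subunit of the clamp loader and the exception, the P2 libraries gave 333 and 266 CPM and the P3 libraries 35.1 and 76.8 (log2 fold change 2.39 ± 0.43, adjusted p = 0.0029). Of 22 tested G1 cyclins, CDK inhibitors and pocket proteins 2 (9.09%) were higher in each population, and with total nuclear counts 1 in P2 and 9 in P3. P2 held 17.7 and 26.7 CPM of Cdkn1c, the CDK inhibitor p57, against 1.73 and 1.81 in P3 (log2 fold change 3.63 ± 0.56, adjusted p = 0.00137). Cdkn1a, the CDK inhibitor p21, was at 199 and 353 CPM in P2 and 112 and 59.7 in P3 (log2 fold change 1.7 ± 0.34, adjusted p = 0.00491). For Cdkn2c, the CDK inhibitor p18, the P2 libraries gave 3.01 and 2.31 CPM and the P3 libraries 21.3 and 23.8 (log2 fold change -3.1 ± 0.36, adjusted p = 0.000369). Of the 3 inhibitors, p57 and p21 were higher in P2 and p18, like cyclin D1 given above, in P3. P2 held 126 and 227 CPM of Ccnd2, cyclin D2, against 404 and 388 in P3 (log2 fold change -1.16 ± 0.29, adjusted p = 0.0125). On removal of 1 library, the 20 replication genes higher in P3 became 3 to 10 (without P2 replicate 1 or 2 or P3 replicate 2), the 2 G1 genes higher in P2 became 0 (without P2 replicate 2), the 2 G1 genes higher in P3 became 1 (without P2 replicate 1 or P3 replicate 2) and the 2 G1 genes higher in P3 became 4 (without P3 replicate 1). Not called then were Mcm5 and Mcm6 (without P2 replicate 1 or 2, adjusted p up to 0.0368), Rfc1 (without P2 replicate 1 or 2 or P3 replicate 1, adjusted p up to 0.0178), Gins2 (without P2 replicate 1 or 2 or P3 replicate 2, adjusted p up to 0.0422), Cdkn1c (without P2 replicate 2, adjusted p up to 0.0105) and Cdkn1a (without P2 replicate 2 or P3 replicate 2, adjusted p up to 0.0314).

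The reporter reads CDK9 activity and not its messenger RNA, so the RNA of its pathway is a separate measurement. Cdk9, the kinase, was at 46.7 and 46.5 CPM in P2 and 38 and 46.3 in P3 (log2 fold change 0.14 ± 0.20, adjusted p = 0.627). For Ccnt1, its cyclin T1, the P2 libraries gave 54.6 and 52.4 CPM and the P3 libraries 35.7 and 46.8 (log2 fold change 0.36 ± 0.21, adjusted p = 0.195). Neither was called. Of the P-TEFb and transcription elongation genes 3 of 30 tested were higher in P2 and 2 higher in P3 (median 0.19), shares of 10.0% and 6.67% near the background of 11.1% and 9.39%, and none of these calls remained in the edgeR fit of the 4 libraries alone. P2 held 213 and 180.4 CPM of Ell2, an elongation factor of secretory cells, against 58.1 and 19.1 in P3 (log2 fold change 2.4 ± 0.43, adjusted p = 0.00264). Aff4, the scaffold of the super elongation complex, was at 296 and 295 CPM in P2 and 112 and 108 in P3 (log2 fold change 1.43 ± 0.18, adjusted p = 0.000557). For Larp7, which holds P-TEFb in its inactive complex, the P2 libraries gave 15.4 and 10.5 CPM and the P3 libraries 31.1 and 56.4 (log2 fold change -1.78 ± 0.35, adjusted p = 0.00409). Ell2 and Aff4 were called higher in P2 and Larp7 higher in P3. P2 held 29 and 30.3 CPM of Th1l, a subunit of the pausing factor NELF, against 49.5 and 59.7 in P3 (log2 fold change -0.89 ± 0.21, adjusted p = 0.00972). The third gene higher in P2 was Ctr9 (0.89 ± 0.19), of the PAF complex, whose sign turned with total nuclear counts (log2 fold change -0.14). Under total nuclear counts 1 of the elongation genes was higher in P2 and 10 in P3. In the leave-one-out fits, the 3 elongation genes higher in P2 became 1 (without P2 replicate 1) and the 2 elongation genes higher in P3 became 0 (without P2 replicate 1 or 2 or P3 replicate 2). Adjusted p-values then exceeded 0.01 for Larp7 and Th1l (without P2 replicate 1 or 2 or P3 replicate 2, adjusted p up to 0.0567), Ell2 (without P2 replicate 1 or 2, adjusted p up to 0.0154) and Ctr9 (without any 1 of the 4, adjusted p up to 0.0398).

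RNA polymerase II and general transcription factor genes were higher in P2 for 2 of 43 tested and higher in P3 for 4 (median -0.23). These shares of 4.65% and 9.3% were at or below the background of 11.1% and 9.39%. Polr2a, the catalytic subunit, whose tail CDK9 phosphorylates, was at 174 and 202 CPM in P2 and 217 and 188 in P3 (log2 fold change -0.11 ± 0.19, adjusted p = 0.694). For Cdk7, the kinase that acts on the tail before CDK9, the P2 libraries gave 44.1 and 28.2 CPM and the P3 libraries 24.2 and 49.6 (log2 fold change -0.06 ± 0.35, adjusted p = 0.903). P2 held 17.7 and 19.5 CPM of Ccnh, its cyclin, against 34.5 and 28.4 in P3 (log2 fold change -0.75 ± 0.25, adjusted p = 0.044). These 3 genes were not called. Called members included the polymerase subunits Polr2c (-1.56 ± 0.32) and Polr2h (-1.43 ± 0.33) on the side of P3. On that of P2 were the TFIID subunits Taf1 (1.2 ± 0.28) and Taf9b (at least 11.5-fold). Under total nuclear counts 1 was higher in P2 and 22 in P3. Of 29 nucleolar and RNA polymerase I genes 4 (13.8%) were higher in P3 (median -0.72), against a background of 9.39%. None of the nucleolar genes was higher in P2 (0 at an unadjusted p under 0.05 and 0 by DESeq2). The largest called were Dkc1 (-2.09 ± 0.27), which makes pseudouridine in ribosomal RNA, and its partner Nhp2 (-1.98 ± 0.35). Ncl, nucleolin, was at 283 and 231 CPM in P2 and 414 and 728 in P3 (log2 fold change -1.15 ± 0.30, adjusted p = 0.0156). After removal of single libraries, the 2 polymerase and factor genes higher in P2 became 1 (without P2 replicate 1 or 2 or P3 replicate 1), the 4 polymerase and factor genes higher in P3 became 0 to 1 (without P2 replicate 1 or 2 or P3 replicate 2), the 4 nucleolar genes higher in P3 became 1 to 2 (without P2 replicate 2 or P3 replicate 2) and the 4 nucleolar genes higher in P3 became 9 (without P3 replicate 1). Lost calls were those of Polr2c and Taf1 (without P2 replicate 1 or 2 or P3 replicate 1, adjusted p up to 0.0487) and Polr2h and Nhp2 (without P2 replicate 1 or 2 or P3 replicate 2, adjusted p up to 0.0694).

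In the Myc, Max and Mxd network genes, which set growth, 1 of 11 tested (9.09%) was higher in P2 and 1 (9.09%) higher in P3 (1 and 3 with total nuclear counts). For Mxd4, a repressor of resting cells, the P2 libraries gave 221 and 221 CPM and the P3 libraries 35.7 and 35.4 (log2 fold change 2.63 ± 0.24, adjusted p = 0.000185). P2 held 0 and 0 CPM of Mxd3, a relative present in dividing cells, against 5.18 and 9.57 in P3 (at least 7.76-fold lower in P2, adjusted p = 0.00151). With 1 library left out, calls were lost for Mxd3 (without P2 replicate 2, adjusted p up to 0.0113).

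Nuclear-encoded respiratory chain genes were higher in P3 for 65 of 74 tested (median -1.7), and none was higher in P2 (0 at an unadjusted p under 0.05 and 0 by DESeq2). Their share of nuclear counts was 0.350% and 0.473% in P2 and 2.78% and 2.81% in P3, and both P2 libraries were below all 8 others for 70. In summed level P3, at 25230 and 21830 CPM, was close to P1, at 25610 and 24510 CPM, and P2 was at 6238 and 7631 CPM. Atp5b, the catalytic subunit of ATP synthase, was at 862 and 1001 CPM in P2 and 3487 and 2899 in P3 (log2 fold change -1.78 ± 0.31, adjusted p = 0.00252). For Atp5a1, its alpha subunit, the P2 libraries gave 642 and 792 CPM and the P3 libraries 2381 and 2325 (log2 fold change -1.71 ± 0.29, adjusted p = 0.00217). P2 held 15.8 and 18.7 CPM of Ndufa5, a subunit of complex I, against 90.3 and 98.2 in P3 (log2 fold change -2.44 ± 0.20, adjusted p = 0.000145). In the 3 genes the libraries of a population lay close together. Atp5g1, a subunit of the rotor ring, was at 9.41 and 14.9 CPM in P2 and 57.5 and 72.1 in P3 (log2 fold change -2.4 ± 0.29, adjusted p = 0.000461). Mitochondrially encoded rows were not tested. Of these, mt-Co1, of complex IV, had 17463 and 23917 counts in P2 and 1007141 and 695014 in P3. The ribosomal RNA mt-Rnr1 had 276 and 381 counts in P2 and 19851 and 13728 in P3. Mitochondrially encoded rows took 1.78% and 1.17% of gene counts in P1, against 59.2% and 36.1% in P3. The 2 populations, close for the nuclear genes, thus differed widely for these rows. Cytoplasmic ribosomal protein genes were higher in P3 for 33 of 77 tested (median -1.09), and none was higher in P2 (1 at an unadjusted p under 0.05 and 1 by DESeq2). Their summed level was 6737 and 4662 CPM in P2 and 12780 and 14140 CPM in P3, with 5036 and 4348 CPM in P1, and both P3 libraries were above all 8 others for 18. The largest called were Rps16 (-1.8 ± 0.25) and Rps15a (-1.78 ± 0.25). For Rpl4, the member with the most counts, the P2 libraries gave 822 and 534 CPM and the P3 libraries 1445 and 1634 (log2 fold change -1.18 ± 0.29, adjusted p = 0.0121). Many of these genes have pseudogenes that take multiple alignments, so that their counts are partial. In fits without 1 of the libraries, the 33 ribosomal protein genes higher in P3 became 10 to 17 (without P2 replicate 2 or P3 replicate 2). No call then remained for Atp5b and Atp5a1 (without P2 replicate 1, adjusted p up to 0.0134).

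Translation initiation and elongation factor genes were higher in P2 for 1 of 32 tested (3.12%) and higher in P3 for 4 (12.5%), with a median of -0.46. The background was 11.1% and 9.39%. P2 held 2305 and 1647 CPM of Eef1a1, the gene of elongation factor EF1a, whose promoter drives the reporter, against 3540 and 3578 in P3 (log2 fold change -0.85 ± 0.33, adjusted p = 0.0706). Eef2, the other elongation factor, was at 2571 and 2057 CPM in P2 and 3727 and 3174 in P3 (log2 fold change -0.58 ± 0.32, adjusted p = 0.19). Called were Eif4ebp1 (2.38 ± 0.40), a repressor of initiation, and on the other side Eif3e (-1.23 ± 0.22) and Eif3h (-1.17 ± 0.20), subunits of initiation factor 3. The endogenous EF1a gene was thus higher in both P3 libraries without passing the test. When single libraries were left out, the 4 translation factor genes higher in P3 became 0 to 1 (without P2 replicate 2 or P3 replicate 2). The threshold was then missed by Eif3e (without P2 replicate 1 or 2 or P3 replicate 2, adjusted p up to 0.0285), Eif4ebp1 (without P2 replicate 1 or P3 replicate 2, adjusted p up to 0.0144) and Eif3h (without P2 replicate 2 or P3 replicate 2, adjusted p up to 0.0213).

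The differences also moved with gene length. In 5 equal groups by summed exon length, the median log2 fold change went from -0.50 in the shortest (up to 1729 bases) over -0.11, 0.07 and 0.23 to 0.41 in the longest (from 5953 bases). The share of genes higher in P2 was 6.55% in the shortest group and 17.1% in the longest, and the share higher in P3 15.4% and 5.32%. Genes called higher in P2 had a median exon length of 4294.5 bases (1538 with a length) and those higher in P3 of 2600 bases (1303 with a length). Ribosomal protein genes lie mostly in the shortest group, 45 of 77, where 20 were higher in P3 and their median was -1.14. Respiratory chain genes there numbered 45, of which 39 were higher in P3 (median -1.65), and in the next 2 groups 14 of 16 and 8 of 8 were higher in P3 (medians -1.72 and -1.77). Mitosis genes were higher in P3 in all 5 groups, with 1 of 1, 7 of 8, 8 of 8, 7 of 7 and 5 of 5 from the shortest to the longest. With TMM factors taken from the longest genes only, an alternative chosen after seeing the data, 1037 genes were higher in P2 and 2152 higher in P3 (32.5% and 67.5% of the calls). By class of gene, 123 of 773 pseudogenes tested were higher in P3 and 11 higher in P2. Of 285 lincRNAs 19 were higher in P2 and 2 higher in P3. Both lincRNA shares lay below the background of 11.1% and 9.39%. The share of pseudogenes higher in P3 lay above its background, and that of pseudogenes higher in P2 below it. The part of gene length in these values was not tested.

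**Figure D5:**
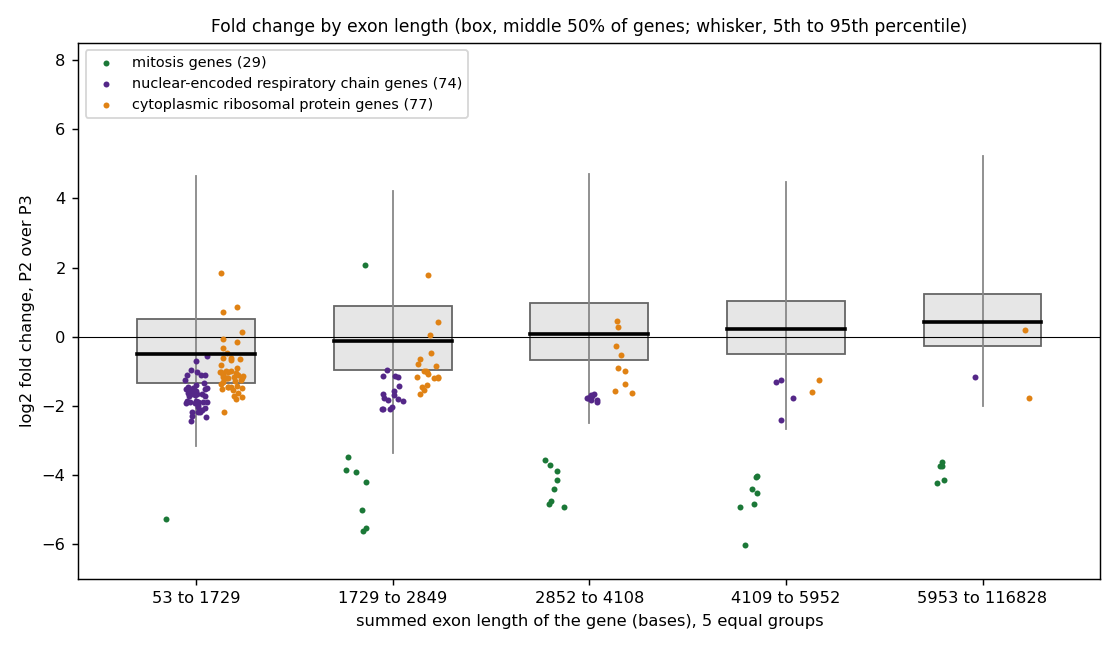
Log2 fold change of P2 over P3 (vertical axis) for all tested genes in 5 equal groups of summed exon length in bases (horizontal axis); boxes hold the middle 50% of genes, whiskers run from the 5th to the 95th percentile, and points are mitosis, respiratory chain and ribosomal protein genes. The median goes from -0.50 to 0.41 from the shortest to the longest group, and most mitosis and respiratory chain points lie below the box of their group, with Plk1 above it.

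Immediate early genes, which cells switch on within minutes of a stimulus and also during dissociation, were higher in P2 for 9 of 21 tested (median 1.91, or 1.67 with members at 0 counts set to their bound), and none was higher in P3 (0 at an unadjusted p under 0.05 and 0 by DESeq2). For Fos the P2 libraries gave 821 and 676 CPM and the P3 libraries 51.8 and 97 (log2 fold change 3.32 ± 0.38, adjusted p = 0.000373). P2 held 102 and 83.9 CPM of Fosb against 0 and 5.17 in P3 (log2 fold change 4.83 ± 0.82, adjusted p = 0.0021). Nr4a1, an orphan nuclear receptor, was at 29.8 and 31.8 CPM in P2 and 0 and 0.517 in P3 (86.8-fold higher in P2, 95% counting interval 23.7 to 722, adjusted p = 0.000788). In these 3 genes both P2 libraries lay several times above both P3 libraries. For Jun the P2 libraries gave 639.8 and 620.2 CPM and the P3 libraries 21.3 and 150.5 (log2 fold change 2.85 ± 0.71, adjusted p = 0.0127). Jun too was higher in both P2 libraries than in both P3 libraries but missed the threshold. With total nuclear counts 5 immediate early genes were higher in P2 and 0 in P3. Of 12 heat shock genes 3 were higher in P3, and none was higher in P2 (2 at an unadjusted p under 0.05 and 1 by DESeq2). P2 held 59.1 and 43.4 CPM of Hspd1, the mitochondrial chaperone HSP60, against 293 and 315 in P3 (log2 fold change -2.57 ± 0.23, adjusted p = 0.000178). Its partner was on the same side, with Hspe1 (-1.94 ± 0.33). On removal of 1 library, the 3 heat shock genes higher in P3 became 1 (without P2 replicate 2). Not called then were Fosb (without P2 replicate 1, adjusted p up to 0.0116) and Hspe1 (without P2 replicate 2, adjusted p up to 0.0231).

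Of 16 p53 target genes 4 were higher in P2 and 1 in P3, against 1 and 3 with total nuclear counts. Trp53inp1, a nuclear stress protein, was at 366 and 206 CPM in P2 and 15.5 and 9.57 in P3 (log2 fold change 4.56 ± 0.37, adjusted p = 0.000142). Others were Eda2r (3.81 ± 0.69), a receptor of the TNF family, and on the other side Sesn1 (-1.62 ± 0.30), a brake on mTOR. Among 4 nuclear long noncoding RNAs 2 were higher in P2. For Malat1, an RNA of nuclear speckles, the P2 libraries gave 1191 and 591 CPM and the P3 libraries 43.7 and 86.6 (log2 fold change 3.76 ± 0.51, adjusted p = 0.000752). P2 held 406 and 642 CPM of Neat1, the backbone RNA of paraspeckles, against 114 and 138 in P3 (log2 fold change 2.05 ± 0.36, adjusted p = 0.0026). Both RNAs stay in the nucleus. In the leave-one-out fits, the 4 p53 target genes higher in P2 became 1 to 2 (without P2 replicate 1 or 2 or P3 replicate 2) and the 2 noncoding RNAs higher in P2 became 1 (without P2 replicate 2 or P3 replicate 1 or 2). Adjusted p-values then exceeded 0.01 for Eda2r (without any 1 of the 4, adjusted p up to 0.02), Sesn1 (without P2 replicate 1 or P3 replicate 1, adjusted p up to 0.0162) and Neat1 (without P2 replicate 2 or P3 replicate 1 or 2, adjusted p up to 0.0203).

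In the remaining lists of epithelial genes few members were called. Reg family and mucosal defence genes were higher in P2 for 1 (10.0%) and higher in P3 for 2 (20.0%) of 10 tested. Reg4, a lectin of deep crypt secretory and enteroendocrine cells, was at 4239 and 4520 CPM in P2 and 35.1 and 38.5 in P3 (log2 fold change 6.89 ± 0.62, adjusted p = 0.000178). For Reg1, a regenerating lectin, the P2 libraries gave 23 and 13.9 CPM and the P3 libraries 432 and 281 (log2 fold change -4.28 ± 0.44, adjusted p = 0.000277). The other gene higher in P3 was Reg3a (-3.81 ± 0.53), an antibacterial lectin. Epithelial junction genes were higher in P2 for 1 (5.0%) and in P3 for 1 (5.0%) of 20 tested (1 and 12 with total nuclear counts). They were the claudins Cldn4 (3.26 ± 0.36) and Cldn7 (-1.16 ± 0.26). Of 7 MHC class II genes 1 (14.3%) was higher in P3. With the replicate number as a block in the fit more of the 7 were called higher in P3, as given further below. P2 held 1.88 and 1.54 CPM of H2-DMa, a helper of peptide loading, against 19.6 and 25.6 in P3 (log2 fold change -3.73 ± 0.70, adjusted p = 0.00355). Cd74, the invariant chain, was at 3.01 and 57.7 CPM in P2 and 55.2 and 275 in P3 (not called), the second library being the higher one in both populations. After removal of single libraries, the 2 Reg family genes higher in P3 became 1 (without P2 replicate 1). Lost calls were those of Reg3a (without P2 replicate 1, adjusted p up to 0.0108), Cldn7 (without P2 replicate 1 or 2 or P3 replicate 1, adjusted p up to 0.0506) and H2-DMa (without P2 replicate 1 or 2 or P3 replicate 2, adjusted p up to 0.0347).

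Of 28 DNA methylation and Polycomb genes 2 were higher in P2 and 1 in P3, against 0 and 6 with total nuclear counts. The shares of 2 and 1 lay below the background of 11.1% and 9.39%. Uhrf1, which guides methylation to newly copied DNA, was at 2.26 and 3.85 CPM in P2 and 24.7 and 89.2 in P3 (log2 fold change -4.2 ± 0.60, adjusted p = 0.000945). The genes higher in P2 were Cbx7 (1.72 ± 0.36), a reader of the Polycomb mark, and Tet1 (at least 2.65-fold), which oxidises methylcytosine. Of 15 circadian clock genes 1 was called, higher in P2, a share below the background (0 higher in P2 and 1 in P3 with total nuclear counts). It was Bhlhe40 (1.67 ± 0.36), a repressor. With 1 library left out, the 2 DNA methylation and Polycomb genes higher in P2 became 0 to 1 (without any 1 of the 4). Calls were then lost for Uhrf1 (without P2 replicate 1, adjusted p up to 0.0117), Bhlhe40 (without P2 replicate 1 or 2 or P3 replicate 2, adjusted p up to 0.0352), Cbx7 (without P2 replicate 1 or P3 replicate 1 or 2, adjusted p up to 0.0424) and Tet1 (without P2 replicate 2 or P3 replicate 1 or 2, adjusted p up to 0.0436).

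Markers of cells outside the epithelium were low, and some moved with a single library. The 16 T and intraepithelial lymphocyte markers summed to 23 and 26.9 CPM in P2 and 261 and 4.65 CPM in P3, with 1457 and 425 CPM in P1, and none of 14 tested was called by edgeR (at an unadjusted p under 0.05 0 higher in P2 and 6 in P3; by DESeq2 0 and 0; 4 higher in P3 without replicate 2 of P3, none without any other library). Ptprc, the common leukocyte antigen, was at 17.7 and 25.7 CPM in P2 and 32.8 and 2.07 in P3, and Gzma, a granule protease of killer cells, at 1.13 and 0.257 CPM in P2 and 59.8 and 0 in P3. The first P3 library thus held more lymphocyte marker RNA than the second. Erythroid cell markers summed to 3.77 and 4.88 CPM in P2 and 211 and 121 CPM in P3. For Hbb-b1, a beta globin, the P2 libraries gave 2.26 and 3.59 CPM and the P3 libraries 116 and 64.4 (log2 fold change -4.89 ± 1.12, adjusted p = 0.00901). Of 7 myeloid cell markers Lyz2 was called higher in P2, at 90.0 and 53.6 CPM in P2 and 0 and 0.776 in P3, and Itgam higher in P3, at 0 and 1.54 CPM in P2 and 7.48 and 23.5 in P3; Lyz2 is a near copy of Lyz1, with which it shares reads. Other called markers were Tagln (3.38 ± 0.78), of smooth muscle, and Ret (4.28 ± 0.79), of neurons and enteroendocrine cells, both higher in P2. None of 3 endothelial markers tested was called by edgeR (1 at an unadjusted p under 0.05, 0 by DESeq2), and neither was the only B cell marker tested (0 and 0). The part of these cells in the differences given here was not tested. In fits without 1 of the libraries, calls were lost for Hbb-b1, Lyz2 and Tagln (without any 1 of the 4, adjusted p up to 0.0687), Itgam (without P2 replicate 1 or P3 replicate 2, adjusted p up to 0.0316) and Ret (without P2 replicate 2 or P3 replicate 2, adjusted p up to 0.0294).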

How the data were processed

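RNA was sequenced from 10 libraries, 2 for each of 5 sorted populations, and groups follow the deposited titles. The authors aligned reads to mm9 with TopHat2 2.1.0 and Bowtie, after FastQC 0.11.5, and deposited raw counts per gene from HTSeq 0.11.2, made on exons without strand and with reads of several alignments set aside. The annotation is not given in the sources used here. Each table held 35012 rows. The 6 rows that name no gene (0.000192 to 0.000596% of counts for the row without a name; the summary rows of HTSeq lie outside the library sizes), 37 mitochondrially encoded rows and 181 nuclear ribosomal RNA rows were removed, which left 34788 rows, and 33425 of these matched an mm9 gene model.

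Counts were fitted with edgeR 4.0.16 (R 4.3.3) by quasi-likelihood, with 5 population means, filterByExpr, TMM and the contrast P2 minus P3 (5 residual degrees of freedom). Genes with an adjusted p under 0.01 (Benjamini-Hochberg) were called. DESeq2 1.42.0 and 17 other settings were alternatives, and the scripts were tested on simulated data. Gene lists (54, with 1008 of 1118 genes tested) were described by counts and medians, and no list was tested as a set. Related lists share members, so their counts are not separate results. Members and lists were chosen with earlier results of these data known. The genes named were the 12 largest differences in each direction (called, no overlap, a mean of at least 20 CPM, over 3 counts in the lower population, an established symbol), the genes the study names, and from each list the largest called and the highest members with those described by role. In lists described briefly the highest members were left out, and some members are not reported here. A fold against a population at 0 is a lower bound from 3 counts per library, and intervals and bounds cover counting error only. For 1 to 3 counts the ratio of summed counts has an exact 95% interval. Motifs were searched in RefSeq promoters, which were found for 9166 of the tested genes.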

Additional observations from a re-analysis of the deposited data

Results flagged for a closer look

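Mitochondrially encoded rows were left out of the comparison, and their share of gene counts differed between its libraries. It was 1.04% in P2 replicate 1, 1.04% in P2 replicate 2, 59.2% in P3 replicate 1 and 36.1% in P3 replicate 2. Both P3 libraries lay above the other 8 libraries. With these rows kept in the scaling and the test, 2881 genes were called, 1432 of them higher in P2.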

How the results depend on the processing

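Of the 172 called genes named here, 171 stayed called with DESeq2 size factors, 170 with upper quartile factors, 170 without a filter on low counts, 169 with a filter of 5 CPM in 2 libraries, 170 with mitochondrial rows kept, 172 with ribosomal RNA rows kept, 172 without nuclear copies of mitochondrial genes and 172 by DESeq2's test; none changed sign. That test called 4002 genes. The 2 last settings were chosen after seeing the data: without P1 in the fit 161 stayed called, and with TMM over the longest genes 161, where 2152 genes were higher in P3.

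Scaling to total nuclear counts gave 5143 calls, 678 higher in P2 and 4465 higher in P3, with list medians of 6.63 for Paneth, 3.37 for goblet, -3.66 for enterocyte and -0.089 for stem cell markers, and 147 of the 172 stayed called. Without a filter on low counts 4426 genes were called (2381 and 2045), with an adjusted p under 0.05 there were 5112 (2815 and 2297), and with the 4 libraries alone in the fit, where fewer degrees of freedom were left, 1056 (653 and 403), and 111 of the 172 stayed called. Leaving out 1 of the 4 libraries gave 1344 to 2500 calls, 768 to 1390 of them higher in P2 and 576 to 1273 higher in P3. The lone library of a population was then assumed to vary like the others. List medians then ran from 3.99 to 5.21 for goblet, 2.1 to 4.96 for tuft, 5.41 to 8.09 for enteroendocrine and 0.21 to 1.96 for stem cell markers, and the cause was not tested.

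Signs that turned were, with total nuclear counts, those of Ccnt1 (-0.67), Cdk9 (-0.89), Ctnnb1 (-0.85), Ctr9 (-0.14), Hspa5 (-0.37), Krt20 (-0.57), Lrig1 (-0.045), P4hb (-0.15), Ptprc (-0.49) and Slc12a2 (-0.044). With TMM over the longest genes they were those of Ccnt1 (-0.050), Cdk9 (-0.28), Ctnnb1 (-0.26) and Krt20 (-0.034). Leaving out 1 of the 4 libraries turned the sign of 11 genes that were not called, with log2 fold changes from -1.04 to 0.16 for Ascl2, -0.51 to 0.58 for Cdk7, -0.028 to 0.30 for Cdk9, -0.92 to 0.47 for Ddc, -6.61 to 4.83 for Gzma, -0.88 to 1.04 for Krt20, -6.25 to 5.51 for Neurog3, -2.36 to 0.62 for Olfm4, -0.21 to 0.0012 for Polr2a, -0.58 to 3.36 for Ptprc and -1.0 to 0.12 for Vil1. Of all these genes Ctr9 was the called one.

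The deviations of same-numbered libraries correlated at -0.0622 between P2 and P3, and at 0.0991 to 0.546 in other pairs of populations. This does not show whether replicate numbers pair P2 with P3. Clock genes and MHC class II genes moved with the number in every population, as given below. The main fit holds no block for the number. With the number as a block 3222 genes were called, 1746 higher in P2 and 1476 higher in P3, and 5 of 7 MHC class II genes were higher in P3 where 1 was called without the block. Depth limits P3 most, where replicate 1 held the fewest counts.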

Other observations

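Circadian clock genes were higher in the library numbered 1 of each population. Summed over the list they were at 945 and 680 CPM in P2 and 826 and 339 CPM in P3, with 1678 and 1093 CPM in P1, 843 and 399 CPM in P4 and 908 and 396 CPM in P5. Per3 was at 73.1 and 16.9 CPM in P2 and 32.2 and 6.46 CPM in P3, and Dbp at 16.9 and 3.34 CPM in P2 and 49.5 and 0.776 CPM in P3. MHC class II genes were higher in the library numbered 2, at 20.7 and 139 CPM in P2 and 158 and 542 CPM in P3, and also in P1, P4 and P5 (171 and 928, 63.4 and 376, 122 and 439 CPM). The labels do not say what a replicate number stands for.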
